A study of Mus musculus with 5 samples.

Results

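The 5S ribosomal RNA gene copies were examined in an RNA immunoprecipitation (RIP) of SAMD4, an RNA-binding protein that represses translation. The copies were taken by name, as every listed interval of the mouse genome whose gene name starts with n-R5s or reads 5S_rRNA. This gave 25 of the 673 listed intervals, each with its own n-R5s number, and 0 named 5S_rRNA. All groups were the same cells, immortalized osteoblasts of FVB strain from calvaria of Samd4PB/PB pups (postnatal day 5 to 7), which are homozygous for a PB transposon insertion in Samd4. The cells had been infected with SV40 and with a lentivirus for Flag-Samd4, so the IgG control shares the insertion and the tagged protein with the IP. The libraries were 2 from the anti-Flag IP, 2 from the IgG control and 1 from input, and at each interval the deposited table holds 1 IP and 1 IgG read count. Separate libraries and the input were not analysed here, so no value below has a replicate, and each test compares the sequenced libraries and not cultures or animals. Of 10 osteoblast markers, 1 is listed, the bone collagen gene Col1a1, with 1989 to 3832 IP reads and 393 to 1030 IgG reads in 3 intervals. A marker that is not listed may still have had reads, because the list holds only intervals with many more IP than IgG reads. IgG reads were at most 28.8% of the IP and IgG reads at any listed interval.

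5S rRNA is the smallest RNA of the large ribosomal subunit. It is made by RNA polymerase III from many near-identical gene copies, whereas RNA polymerase I makes the other cytoplasmic rRNAs as parts of a long precursor. In mammals most copies stand in a tandem array and others are scattered over the genome, many of them pseudogenes. The RNA binds the ribosomal proteins RPL5 and RPL11 before it enters the ribosome. Because the copies are so alike, the copy behind a read is uncertain, and the sources used here do not say how reads with several positions were counted.

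All 25 listed 5S copies lay in the tandem array on chromosome 8, and none of the dispersed copies was listed. The annotated RNAs run on the minus strand from chr8:126062686-126145946 (mm9), a span of 83.3 kb, and each is a noncoding exon of 119 bases. Neighbouring numbers were evenly placed, with 1679 to 1727 bases per step of the number over 24 gaps (median 1698). A planned comparison of the array with dispersed copies therefore had nothing on its other side. A further 7 listed intervals lay in the same run, under clone-based names from AC141881.1 to AC141881.9. They also covered minus-strand noncoding RNAs of 119 bases, and with them the distance between neighbouring RNAs had a median of 1703 bases. The table gives these RNAs no 5S name. They are kept apart below and serve as the nearest comparison.

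The 25 copies had almost the same number of IP reads. The lowest was n-R5s142 with 103, the median 129 and the highest n-R5s113 with 138 (95% exact Poisson interval 116 to 163). After n-R5s113 came n-R5s141 with 136, n-R5s111 and n-R5s121 with 135 each, and n-R5s107 and n-R5s128 with 133 each. These leading copies did not stand apart from the rest beyond counting error, and the interval of n-R5s142 (84.1 to 125) overlapped that of n-R5s113. The variance of the IP reads over the 25 copies was 0.672 times their mean, where independent Poisson counts of equal mean average 1. The spread between copies was thus no wider than counting error, and the copies are not independent measurements if they share reads. Per base of interval the copies held 0.616 to 1.17 IP reads (median 0.912), against a median of 0.186 over all 673 listed intervals. The intervals of the copies were also shorter, with a median of 140 bases against 309. Rprl3, another RNA polymerase III transcript, held more per base, with 336 IP reads in 136 bases, so a high density is not particular to 5S.

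IgG reads were few at every copy. They ran from 0 to 8 with a median of 3, and 11 of the 25 copies had exactly 3. At these 11 copies the IP reads ran from 103 to 135. n-R5s123 had 131 IP reads and 0 IgG reads, and n-R5s133 had 125 and 0. The IgG was set to 3 reads at each interval, the limit for a count of 0, and the IP count was taken as exact. IP reads were then at least 43.7-fold higher at n-R5s123 and at least 41.7-fold higher at n-R5s133, not corrected for depth. When the IgG was multiplied by 1.637, a factor worked out from the authors' p-values, these bounds were 26.7-fold and 25.5-fold. Whether that factor stands for library depth was not tested. The lower ends of the 95% Clopper-Pearson intervals of the unscaled ratios were 35.0 and 33.4. Relative to the IP reads, again taken as exact, a count of 0 allows IgG reads of up to 2.29% at n-R5s123 and 2.40% at n-R5s133. With at least 15 IP and 0 IgG reads, 2 of 25 copies passed, against 14.4% of all 673 intervals. n-R5s141, with 136 and 1, and n-R5s149, with 109 and 1, followed. At the other end n-R5s122 stood at 129 IP against 8 IgG reads, a ratio of 16.1 (95% Clopper-Pearson interval 7.94 to 38.1). n-R5s121 had 135 and 7 (ratio 19.3), and n-R5s146 had 131 and 7 (ratio 18.7). n-R5s122, the copy with the most IgG reads, is next to n-R5s123 in the array, but n-R5s133, which also had 0, is not.

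**Figure D1:**
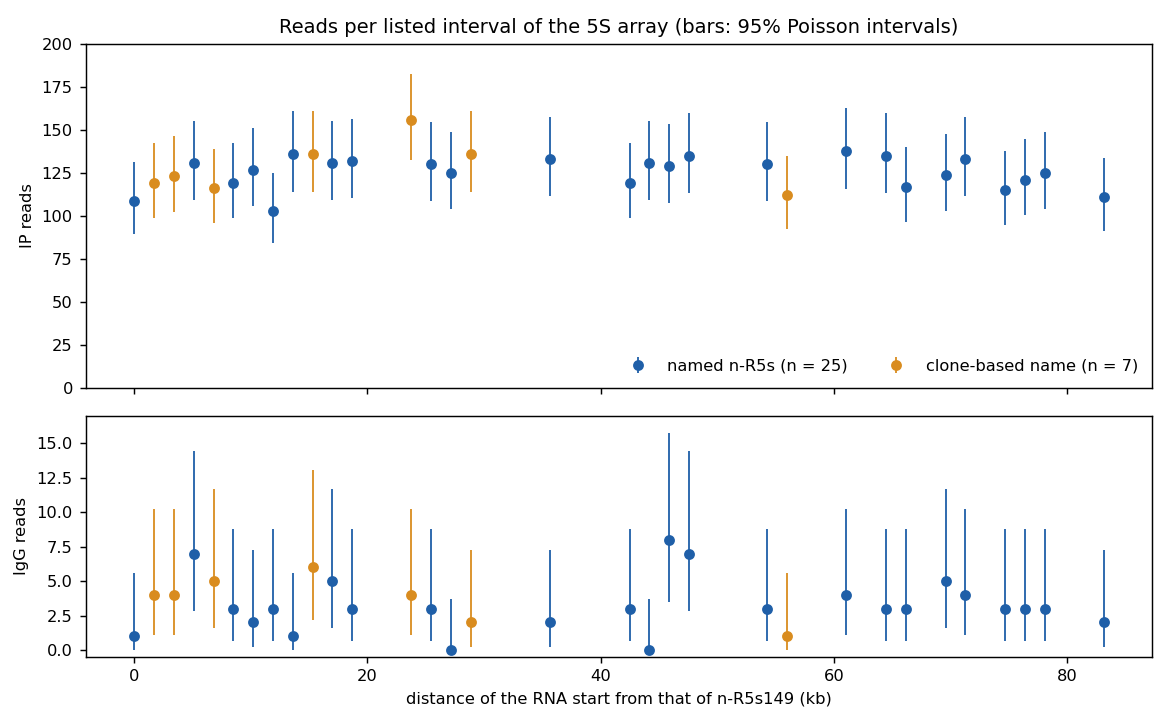
Reads in the Flag-SAMD4 IP (upper panel) and in the IgG (lower panel) for each of the 32 listed intervals of the array, by distance along the array in kb from n-R5s149. Points are read counts and bars 95% Poisson intervals; blue points are the 25 named copies, with 103 to 138 IP and 0 to 8 IgG reads, and orange points the 7 clone-named intervals, with 112 to 156 and 1 to 6.

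The copies did not differ from each other in the share of IgG reads once the number of comparisons was taken into account. The reads of each copy were set against the summed reads of the other 24 in a two-sided Fisher's exact test. Of 25 such exact tests 1 fell below 0.05, that of n-R5s122 (5.84% IgG reads, p = 0.0204). After Benjamini-Hochberg adjustment over the 25 exact tests 0 did, and the lowest adjusted p was 0.444. For n-R5s121 (4.93%) the exact p was 0.0888, and for n-R5s123 (0%) it was 0.0779. Intervals of counts this small are wide, so differences of a few reads between copies were not detectable at this depth.

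Summed over the 25 copies the IP held 3139 reads and the IgG 81. The IgG share was 2.52% (95% Clopper-Pearson interval 2.0% to 3.12%), which is a ratio of 38.8 (31.1 to 48.9), not corrected for depth. If 1 read was counted at several copies, the sum holds it more than once and this interval is too narrow. Of all 673 listed intervals, 5S copies included, 146 (21.7%) had a lower IgG share than summed 5S. The mean copy, rounded to 126 IP and 3 IgG reads, has a ratio of 42.0 with an interval of 14.0 to 206. The copies hold 0.0963% of the IP reads and 0.0143% of the IgG reads of all listed intervals. Every listed interval had more IP than IgG reads, with an IgG share of at most 28.8%, so the direction is no result. In an exact two-sided binomial test at an expected IP share of 0.5, with Benjamini-Hochberg adjustment over all intervals, 25 of 25 copies were called, as were 100% of the 673 intervals. At the IP share of all listed reads, 0.852, 25 of 25 copies were called with a higher IP share, against 25.3% of the 673 intervals. That share comes from summed reads, 14.8% of them IgG, in which deep intervals weigh most. The median listed interval had 8.70% IgG reads, so this test does not set the copies against a typical interval. Such a call also depends on depth, and the median of IP reads was 74 over all 673 intervals, against 129 at the copies. The highest adjusted p among the copies was 0.00578, at n-R5s122. Since the copies may share reads, these 25 calls are not 25 separate results. Among the other listed intervals, 63 had IP reads in the same range of 103 to 138. Their IgG reads ran from 0 to 47 with a median of 18, and 39 of the 63 had more than the 8 of n-R5s122.

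The 7 clone-named intervals of the array resembled the named copies. AC141881.5 had the most IP reads of the whole array, 156 (95% Poisson interval 133 to 182), with 4 IgG reads. AC141881.6 and AC141881.4 had 136 IP reads each, with 2 and 6 IgG reads, and AC141881.3 had 123 and 4. AC141881.1 had 119 and 4, AC141881.9 had 116 and 5, and AC141881.7 had 112 and 1. Apart from AC141881.5, their IP reads lay within the range of the named copies, and so did all their IgG reads. Together they held 898 IP and 26 IgG reads, 2.81% IgG reads against the 2.52% of the named copies. Their IP to IgG ratio was 0.891 times that of the named copies (95% interval 0.563 to 1.45, p = 0.638 by two-sided Fisher's exact test), a comparison chosen after the data were seen. In the order of genes in the RefSeq annotation of GRCm38.p6, 1 gene stands between n-R5s139 and n-R5s141, where AC141881.4 lies in the deposited table. It is Gm22109, with the synonym Rn5s23. In the same way Gm25212 (Rn5s28) stands between n-R5s144 and n-R5s146, the place of AC141881.9. Gm22291 (Rn5s30) and Gm23284 (Rn5s31) stand between n-R5s146 and n-R5s149, the place of AC141881.3 and AC141881.1. For the other 3 intervals RefSeq has more than 1 gene between the flanking copies, so gene order alone assigned none. Their places by spacing along the array are given below.

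The listed copies were nearly those for which RefSeq holds a curated RNA record. By symbol, 25 of 25 members matched the RefSeq annotation of GRCm38.p6, from n-R5s100 to n-R5s149. Between these numbers the annotation has 41 n-R5s symbols on chromosome 8. A curated RNA record of 121 bases (accession type NR) stands for 25 of them, and 24 of these 25 were listed. A record predicted by RefSeq's annotation pipeline (accession type XR), 119 bases long, stands for 15, and 1 of these 15 was listed, n-R5s107. The remaining symbol, the pseudogene n-R5s127, was not listed. The curated copy that was not listed is n-R5s136. It is 1 of 3 RefSeq genes between n-R5s134 and n-R5s138, where AC141881.5 lies. By distance from n-R5s149, AC141881.5 stood at 23.8 kb, n-R5s134 at 25.5 kb and n-R5s138 at 18.7 kb. At the even spacing given above, AC141881.5 took the place next to n-R5s134, where the RefSeq order has Rn5s. No interval was listed at the place of n-R5s136. In the same way AC141881.7 (56.0 kb) stood next to n-R5s117 (54.3 kb), and AC141881.6 (28.9 kb) next to n-R5s133 (27.2 kb). The RefSeq order has Gm25018 (Rn5s10) and Gm26391 (Rn5s17) at these places. The symbols n-R5s114, n-R5s115 and n-R5s129 to n-R5s131 come before them, and no interval was listed there. Listed and unlisted symbols were interspersed in the lower numbers, and all n-R5s symbols from n-R5s138 to n-R5s149 were listed. Outside these numbers the annotation has 28 more n-R5s symbols on 15 chromosomes, 11 with a predicted record and 17 pseudogenes, and 0 of them were listed. An unlisted copy may have had reads, since the table holds no interval below its own limits, and its number of reads was not analysed here. Sequence differences between the copies were not tested.

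**Figure D2:**
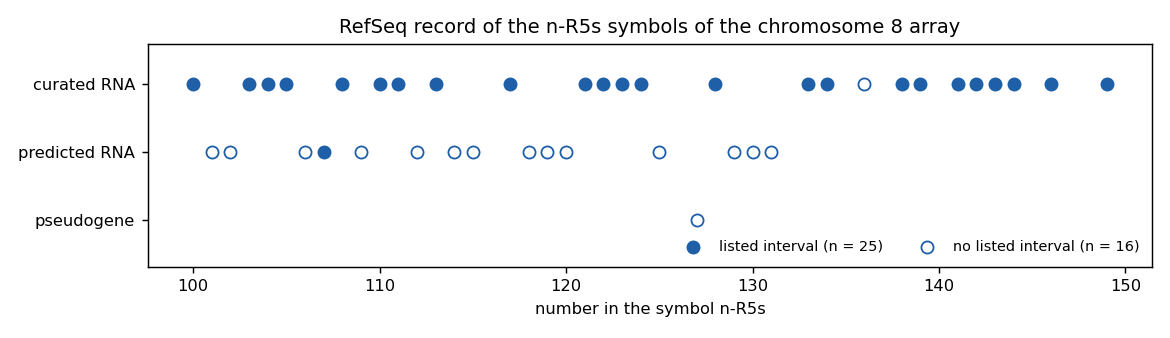
RefSeq record (vertical axis) of the 41 n-R5s symbols of the chromosome 8 array by the number in the symbol (horizontal axis). Filled points have a listed interval and open points have none; 24 of 25 symbols with a curated RNA record, 1 of 15 with a predicted one and 0 of 1 pseudogene are filled.

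Most intervals left out the first bases of the RNA and ran past its annotated 3′ end. At 16 copies the interval began 7 bases inside the 5′ end and at 7 copies 6 bases inside it. n-R5s122 was covered from its first base, and the interval of n-R5s141 began 1 base upstream of the RNA. The overlap with the RNA was therefore 112 to 119 bases, or 94.1% to 100% of its length. At the 3′ side all 25 intervals went beyond the annotated end of the 119-base RNA, by 1 to 103 bases with a median of 27. The curated RefSeq records are 121 bases long, and at which end they differ was not analysed here. An extension of 1 base, at 3 copies, or of 2 bases, at 1 copy, may thus depend on the annotation. The extension was 23 to 30 bases at 14 copies, 13 bases at n-R5s113 and n-R5s149, and 1 to 5 bases at 6 copies. It was longest at n-R5s103, n-R5s123 and n-R5s107, with 49, 57 and 103 bases. The single copy with a predicted record, n-R5s107, thus had the longest interval, 216 bases at chr8:126074464-126074679, and with 133 IP and 4 IgG reads the lowest number of IP reads per base, 0.616. The interval of n-R5s122, the copy with the most IgG reads, lay at chr8:126099947-126100094. Of the 7 clone-named intervals, 6 began 7 bases and 1 began 6 bases inside the RNA, and all 7 ran 25 to 30 bases past its end.

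IP reads overlapped between copies with short and long extensions. The 6 copies with 1 to 5 bases beyond the 3′ end had 121 to 136 IP reads (median 131). The 14 copies with 23 to 30 bases had 103 to 135 (median 124.5), and the 3 copies with the longest extensions had 125, 131 and 133. The share of IgG reads was 2.63% (95% Clopper-Pearson interval 1.63% to 3.99%) in the first of these sets, 2.71% (2.0% to 3.57%) in the second and 1.77% (0.714% to 3.61%) in the last. These intervals also overlapped. The position of reads within an interval is not in the table, so how many of them touch bases beyond the annotated RNA was not analysed here.

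**Figure D3:**
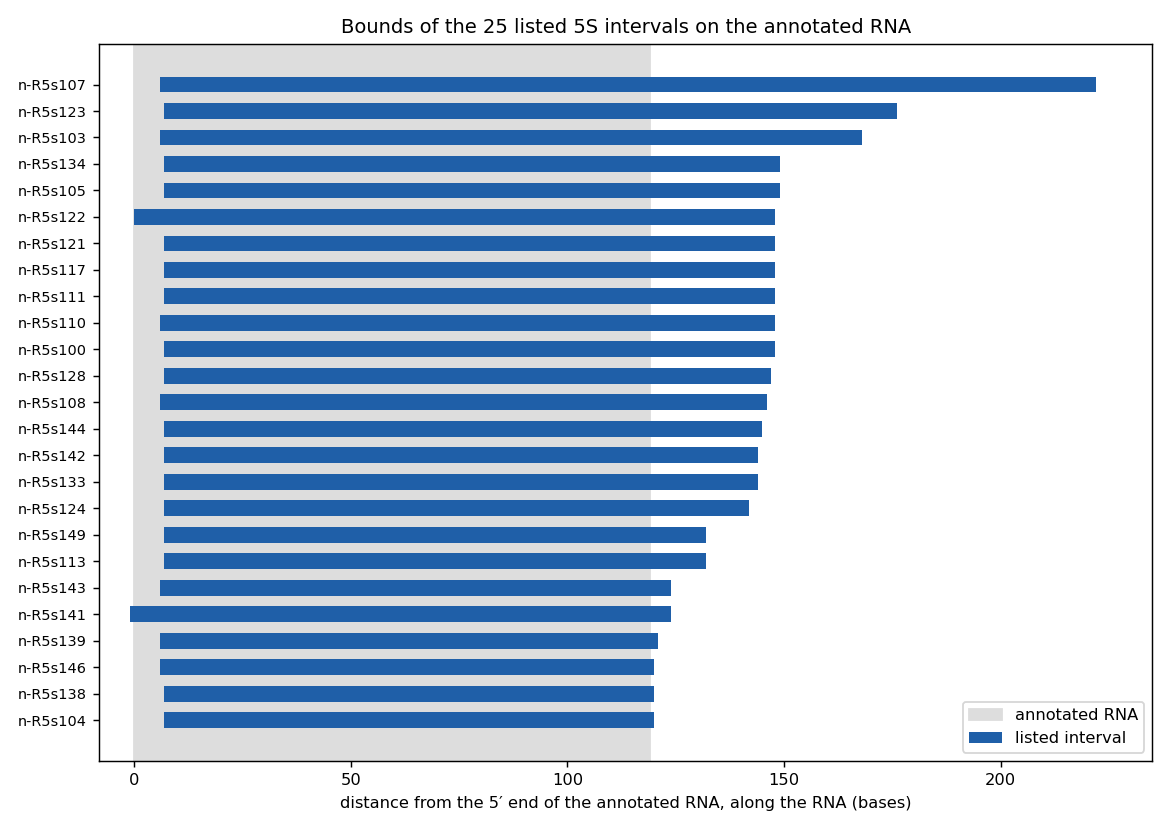
Bounds of the 25 listed 5S intervals, 1 bar per copy, on a scale of bases from the 5′ end of the annotated RNA, which is the grey band of 119 bases. All bars but those of n-R5s122 and n-R5s141 begin 6 or 7 bases inside the RNA, and the bar of n-R5s107 reaches 103 bases past its end.

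Another gene was named at 1 of the 25 intervals. The interval of n-R5s149 (chr8:126145815-126145939, 109 IP and 1 IgG reads) also lies in an intron of Gm20388, on the plus strand and so opposite to the 5S RNA. The transcript of Gm20388 spans 4.43 Mb, and the same intron encloses all 32 listed intervals of the array, although the table names Gm20388 at that 1 interval alone. Without n-R5s149 the ratio of the clone-named to the named intervals was 0.912 (two-sided Fisher's exact test, p = 0.725).

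Among other RNAs made by RNA polymerase III, the IgG share of 5S was near that of the RNA of RNase MRP and far below that of 7SK. RNase MRP is an enzyme that cuts precursor rRNA, and its RNA, Rmrp, had 40539 IP and 1026 IgG reads, or 2.47% IgG reads. Its IP to IgG ratio was 1.02 times that of 5S (95% interval 0.801 to 1.28, p = 0.860 by two-sided Fisher's exact test, as for all RNAs below). Rpph1, the RNA of the tRNA-processing enzyme RNase P, had 2799 and 33, or 1.17%. Its ratio was 2.19 times that of 5S (1.44 to 3.40), with an exact p of 0.000130, or 0.000259 when adjusted over 4 RNAs. Rprl3, an RNase P RNA-like gene, had 336 and 1, a ratio 8.67 times that of 5S with an interval from 1.50 to 348, an exact p of 0.00616 and an adjusted one of 0.00821. Against the mean reads of 1 copy in place of the sum, the exact test was not passed by Rpph1 (2.02 times, interval 0.391 to 6.57, p = 0.205) or by Rprl3 (7.96 times, interval 0.632 to 421, p = 0.0664). 7SK, which holds the elongation factor P-TEFb inactive, had 3 listed intervals with 17944 IP and 5743 IgG reads, or 24.2%. Its ratio was 0.0806 times that of 5S (0.0637 to 0.101, exact p = 8.22e-244, 3.29e-243 when adjusted), and 0.0744 times that of 1 mean copy (exact p = 6.09e-12). The 3 7SK intervals had 17.9% to 27.4% IgG reads, all above the median of 8.70% over all 673 listed intervals. Lying below 7SK is therefore not particular to 5S.

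U1, the spliceosomal RNA that recognises 5′ splice sites, is also listed in many near-identical copies. Its 12 intervals had 822 to 1532 IP reads and 134 to 262 IgG reads, a share of 10.9% to 15.5%. The shares of the 25 5S copies, 0% to 5.84%, did not overlap with these. The median share over all 673 listed intervals, 8.70%, also lay below the lowest U1 share, so lying below U1 is not particular to 5S. Over summed reads the ratio of U1 was 0.164 times that of 5S (95% interval 0.129 to 0.205, exact p = 7.53e-96), and 0.151 times that of 1 mean copy (exact p = 2.32e-05). U1 was added to the comparison after the data were seen. Depth is 1 factor for all intervals and cancels in these ratios. Whether the RNAs differ in how the library preparation or the alignment took them up was not tested.

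**Figure D4:**
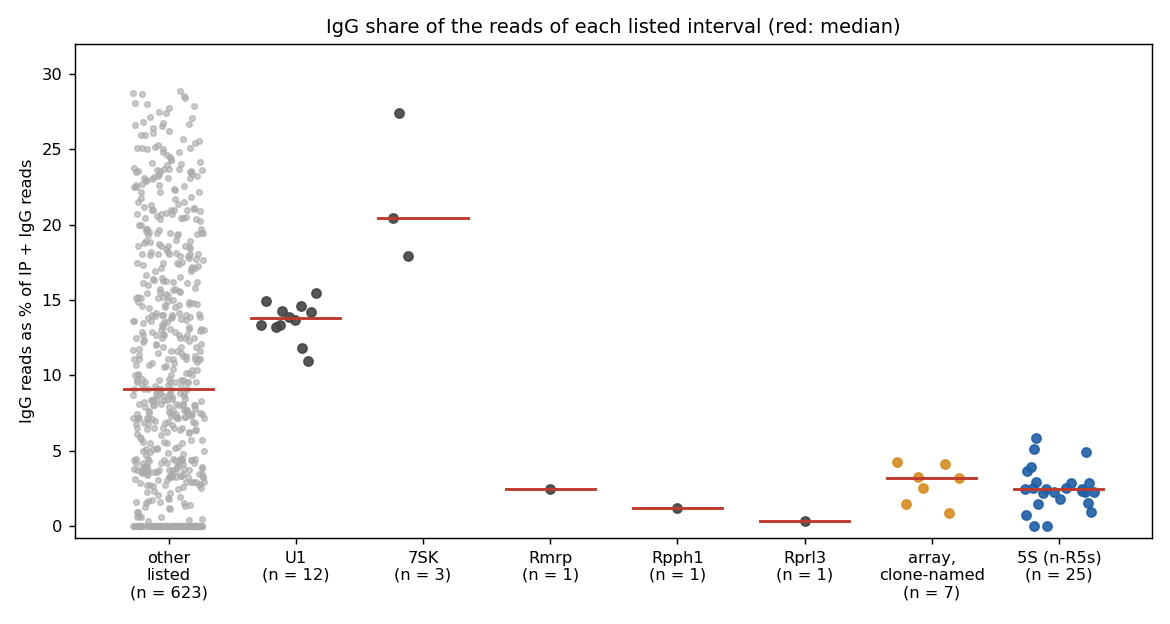
IgG reads as a percentage of IP and IgG reads (vertical axis) for each of the 673 listed intervals, by RNA (horizontal axis); each point is 1 interval and red lines are medians. The 25 5S copies lie between 0% and 5.84%, below all 12 U1 and all 3 7SK intervals, and the other 623 intervals have a median of 9.09%.

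No mRNA from a list of 18 genes for proteins that bind 5S rRNA or make it had a listed interval. The list holds Rpl5 and Rpl11, the polymerase III factor genes Gtf3a, Gtf3c1 to Gtf3c6, Brf1, Bdp1 and Tbp, the La protein gene Ssb, the 5S assembly factor genes Rpf2, Rrs1 and Heatr3, and Mdm2 and Mdm4. None of 5 names of other rRNAs was listed either, and of 12 names of RNA polymerase III transcripts 4 were. With 0 of 18 listed, reads of these mRNAs were not analysed here, and the number says nothing of their level.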

How the data were processed

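RIP was sequenced by the authors from Flag-SAMD4 osteoblasts. Titles and sources set the groups, although the antibody field of the IgG libraries reads Flag. The submitters' processing notes name TopHat2 2.0.9 and mm9. The sources used here name neither the interval caller nor how libraries were pooled. Over 16285 lines, the deposited table describes 673 intervals, with a count of reads in IP and in IgG and a count of overlapping bases. The authors' fold and q-values were not used. The authors' p-values in the deposited table served only to find the factor on the IgG count, 1.637, that gives 553 of 560 of them within a relative tolerance of 1e-04, and so an IP share of 0.621. Starts were read as counted from 0, because the overlap of all 32 array intervals then equals the deposited one, and are printed from 1. Library depth is not given. The listed reads sum to 3260616 (IP) and 567264 (IgG). Intervals are 95% and cover counting error only; reads are not independent molecules.

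Tests (SciPy 1.17.1, Python 3.11.15) were exact binomial and two-sided Fisher's exact tests with Benjamini-Hochberg adjustment and a threshold of 0.05; ratios of ratios are conditional maximum likelihood odds ratios. The binomial procedure was tested on simulated data. An array was a run of copies at most 100 kb apart. Members, lists and tests were chosen with earlier results of these data known. The rule named the 6 copies with most IP reads, those with 0 IgG reads, the extremes of the IgG share, those with another gene, and listed members of the lists. Further copies were named after their values were seen. RefSeq (GRCm38.p6) was used for symbols and gene order only, and Rn7sk was read under the table's name 7SK.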

Additional observations from a re-analysis of the deposited data

How the results depend on the processing

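The count of 25 called copies was the same at the expected IP shares of 0.621, where all 673 intervals were called, and 0.852, where 25.3% were. Without adjustment 1 copy, not 0, differed from the other 5S copies. With at most 1 IgG read 4 copies passed in place of 2, as did 158 of all 673 intervals in place of 97. With the reads of 1 mean copy, the ratio of Rmrp fell to 0.941 times that of 5S (two-sided Fisher's exact test, p = 1), on the other side of 1. Leaving out the 5S interval with the most reads changed no call of the comparisons with other RNAs. For the 6 polymerase III intervals together, the ratio of 0.234 became 0.0942 without Rmrp, the deepest of them. The named copies had a median of IP reads 6 above the clone-named intervals, but a mean that differed by -2.73. No value could be had for the array against dispersed copies, for alternatives to it, or for 5S_rRNA names in place of n-R5s names, since none is listed. No paired analysis was possible because the table gives 1 pooled number per antibody, and for the same reason no library could be left out. At 0 to 8 IgG reads per copy, depth limits what can be said of single copies.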
